A study of Arabidopsis thaliana with 6 samples.

Results

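Seedlings of importin123, a triple mutant of Arabidopsis thaliana in genes of importin alpha, were set against seedlings of the wild type Col-0. The members were the 2 importin123 libraries and the 2 Col-0 libraries, 4 of the 6 RNA-seq libraries of the series, read over 32548 nuclear genes (locus IDs beginning AT1G to AT5G) of 34262 features in the count table. The remaining 2 libraries were of lhp1-3, a mutant of the chromatin protein gene LHP1. They entered here as a second comparison for importin123 and in the estimate of spread behind each test. All genotypes were in the Col-0 background, and whole seedlings were grown on half-strength MS medium with 0.8% sucrose in days of 16 h light and 8 h dark and collected at ZT12, which is 12 h after lights on. The labels name no allele, plant age or number of plants for importin123, and they do not say which members of the importin alpha family the name stands for. Nor do they say whether the 2 libraries of a genotype came from separate cultures. The p-values below therefore measure the spread between libraries of the same genotype, which may be technical. That spread was estimated over all 6 libraries, lhp1-3 included, with information shared between genes.

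Importin alpha is the adaptor of classical nuclear import. It binds the basic localization signal of a cargo protein in the cytoplasm, and importin beta carries the pair through the nuclear pore. Arabidopsis has a family of importin alpha genes with overlapping roles, and members are known for work in immunity, in the entry of light and stress regulators into the nucleus, and in plant transformation by Agrobacterium.

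Depth was 70137936 and 71527792 counts in importin123, against 78775091 and 95101867 counts in Col-0. Genes that are silent in seedlings were not at 0 in the mutant libraries. Over 2302 silent genes (those with the lowest 10% of RPKM among coding nuclear genes of 1000 bases or more), the median RPKM was 1.78 and 1.32 in importin123, against 0.206 and 0.248 in Col-0. Spread over gene length, this floor made up 15.2% and 10.5% of nuclear counts in importin123, against 1.44% and 1.74% in Col-0. On the deposited counts 8 of 10 common reference genes were lower in importin123 (log2 fold changes of -1.04 to -0.32), while silent genes had a median of 2.22. With each library's floor taken off, the reference genes ran from -0.27 to 0.47 and none was called. A gene is said below to have risen or fallen only where the deposited counts and the floor-subtracted counts both gave an adjusted p under 0.05 in the same direction. Unless another scale is named, CPM means floor-subtracted counts scaled to library size, and a fold change is importin123 over Col-0 on floor-subtracted counts with its standard error and n = 2 libraries per genotype. Adjusted p-values came from edgeR's quasi-likelihood test over all genes with Benjamini-Hochberg adjustment. Where a gene was within 0.5 of a floor in importin123 its subtracted fold change is not given.

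Of 19815 nuclear genes testable after subtraction, 1960 rose (9.89%) and 4093 fell (20.7%), together 30.5%. These shares are the background for every count of list members below. Over all genes, only a small majority of rises and of falls kept their call with any 1 library left out. Calls that held in the lists below have to be read beside that. A call said to be lost was lost on the deposited counts, on the floor-subtracted counts or on both. The size given for such a fit is on floor-subtracted counts, and it can change little where the call was lost on deposited counts. Floor-subtracted counts alone gave 4017 higher (20.3%) and 4154 lower genes (21%), together 41.2% and nearly evenly split. The deposited counts alone gave 13535 higher (41.9%) and 11075 lower (34.3%) of 32308, together 76.2%. With other scalings of the deposited counts the lower genes were the more numerous, with 11714 higher and 12714 lower in DESeq2 and 12403 and 12893 with RLE size factors. A test of the deposited RPKM gave 18773 higher and 4652 lower. Both importin123 libraries lay beyond both Col-0 libraries in 75.9% of genes in floor-subtracted CPM and in 81.2% in deposited CPM, so groups that do not overlap are the usual case here. The split of calls made on both moved with the size of the floor. With a floor 25% lower 3697 rose and 4908 fell, and with a floor 25% higher 1308 rose and 3583 fell. It also moved with the filter: among genes at least 3 floors above the floor 696 rose and 3444 fell. The median log2 fold change of all tested genes was 0.01. It was 0.37 in the 10% of genes with the lowest RPKM and -0.25 in the 10% with the highest. Small changes of very low or very high genes have to be read beside this shift. In the lowest 10%, 26.5% rose and 3.63% fell, and in the highest 10%, 4.59% rose and 43.4% fell. Counts of calls among such genes have to be read beside these shares.

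**Figure D1:**
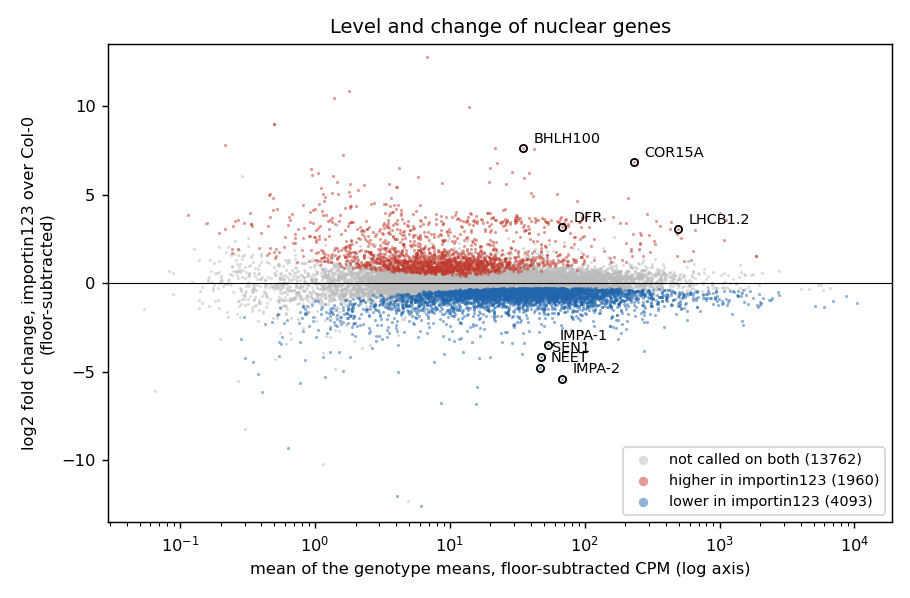
Each point is 1 nuclear gene, with the mean of the importin123 and Col-0 means in floor-subtracted CPM on a log axis and the log2 fold change of importin123 over Col-0 on the other axis. Red points rose and blue points fell on both counts, and the circled genes include IMPA-1 and IMPA-2 among the largest falls and BHLH100 and COR15A among the largest rises.

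Within the importin alpha family 3 of 9 genes fell, and no member rose. IMPA-1 had 9.02 and 8.53 CPM in importin123, against 100.2 and 97.7 CPM in Col-0 (log2 fold change -3.50 ± 0.10, adjusted p = 4.3e-06). MOS6, also known as importin alpha 3, had 10.7 and 9.97 CPM in importin123, against 38.6 and 36.1 CPM in Col-0 (log2 fold change -1.85 ± 0.12, adjusted p = 8.9e-05). IMPA-2 had 2.88 and 3.31 CPM in importin123, against 135 and 129 CPM in Col-0, near the floor in importin123, and its log2 fold change on deposited counts was -4.41 ± 0.17. The numbers of these 3 genes match the digits in the mutant's name, and in each both importin123 libraries lay below both Col-0 libraries. The other expressed members did not pass the test on both counts. IMPA-4 had 80.1 and 75.2 CPM in importin123, against 73.8 and 69.2 CPM in Col-0 (log2 fold change 0.12 ± 0.10, adjusted p = 0.36). IMPA-6 had 26.2 and 21.0 CPM in importin123, against 18.5 and 18.1 CPM in Col-0 (log2 fold change 0.37 ± 0.14, adjusted p = 0.064). IMPA-9 had 13.2 and 11.9 CPM in importin123, against 11.7 and 10.97 CPM in Col-0 (log2 fold change 0.15 ± 0.13, adjusted p = 0.4). Both importin123 libraries stood slightly above both Col-0 libraries at these 3 genes, short of the threshold. IMPA-5, IMPA-7 and IMPA-8 were within 0.5 of a floor in both genotypes and could not be tested. Against lhp1-3, the log2 difference was -3.29 ± 0.10 for IMPA-1 and -1.69 ± 0.12 for MOS6. In whole seedlings, here and below, fewer cells of a type cannot be told apart from less RNA per cell. LHP1 itself had 14.9 and 16.0 CPM in importin123, against 15.4 and 14.5 CPM in Col-0 (log2 fold change 0.06 ± 0.15, adjusted p = 0.79).

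Few changes passed the test in the rest of the transport machinery. Of 22 genes for importin beta, exportins, Ran and its regulators and nuclear pore proteins, only NUA rose and none fell. NUA, a protein of the pore's nuclear basket, had 21.5 and 24.6 CPM in importin123, against 9.18 and 8.88 CPM in Col-0 (log2 fold change 1.35 ± 0.22, adjusted p = 0.0033). The floor-subtracted counts alone placed 11 of the 22 higher in importin123, with a list median of 0.32, whereas the deposited counts placed 2 of the 22 higher and 8 lower. KPNB1, an importin beta, had 159 and 158 CPM in importin123, against 134 and 127 CPM in Col-0 (log2 fold change 0.28 ± 0.10, adjusted p = 0.051). AT2G46520, annotated as a cellular apoptosis susceptibility protein, whose human counterpart returns importin alpha to the cytoplasm, had 67.3 and 72.6 CPM in importin123, against 47.2 and 47.4 CPM in Col-0 (log2 fold change 0.57 ± 0.09, adjusted p = 0.0024). On deposited counts its log2 fold change was -0.09, which is why it was not called.

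Iron genes held several of the largest changes. Plants short of iron switch on a cascade of bHLH transcription factors, in which the subgroup Ib factors BHLH38, BHLH39, BHLH100 and BHLH101 pair with FRU, the main regulator of iron uptake in roots. The ubiquitin ligase BTS acts against the factors at the top of the cascade, and ferritins store iron when it is plentiful. The windows of 250 bases before the annotated starts of the 4 bHLH genes are shown because these genes rose together. They were read 5′ to 3′ on the gene's strand from the RefSeq TAIR10.1 genome, with any CACGTG, a palindromic core bound by many bHLH and bZIP factors, in capitals.
BHLH38, chr3:21085246-21085495, minus strand: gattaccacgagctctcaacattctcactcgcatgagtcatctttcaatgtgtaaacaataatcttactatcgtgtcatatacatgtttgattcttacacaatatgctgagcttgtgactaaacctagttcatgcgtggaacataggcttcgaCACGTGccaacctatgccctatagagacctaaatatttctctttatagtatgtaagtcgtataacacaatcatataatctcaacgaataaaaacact
BHLH39, chr3:21087711-21087960, minus strand: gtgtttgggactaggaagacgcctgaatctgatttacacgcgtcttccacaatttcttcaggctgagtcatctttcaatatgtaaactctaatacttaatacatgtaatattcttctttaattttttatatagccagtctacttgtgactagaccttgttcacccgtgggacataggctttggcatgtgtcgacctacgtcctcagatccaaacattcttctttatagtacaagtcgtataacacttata
BHLH100, chr2:17199455-17199704, minus strand: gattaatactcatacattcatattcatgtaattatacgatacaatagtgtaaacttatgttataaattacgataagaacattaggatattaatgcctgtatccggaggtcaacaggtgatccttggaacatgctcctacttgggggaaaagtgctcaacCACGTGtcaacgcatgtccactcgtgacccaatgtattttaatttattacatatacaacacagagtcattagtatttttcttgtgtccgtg
BHLH101, chr5:1139634-1139883, minus strand: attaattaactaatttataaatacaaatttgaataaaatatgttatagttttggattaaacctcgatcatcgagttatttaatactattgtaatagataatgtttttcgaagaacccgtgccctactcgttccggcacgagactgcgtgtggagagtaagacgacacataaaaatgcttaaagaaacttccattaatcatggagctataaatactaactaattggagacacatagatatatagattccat
On either strand, the windows of BHLH38 and BHLH100 held 1 CACGTG each, at -97 and -91 bases from the start, and those of BHLH39 and BHLH101 held none. CACGTG was present in 5.9% of 32548 nuclear windows, 7.06% of those of tested genes, 8.93% of those that rose and 6.79% of those that fell. BHLH38 and BHLH39 are neighbours, and their windows shared a run of 16 bases, tgagtcatctttcaat, which begins -217 and -187 bases from the starts of BHLH38 and BHLH39.

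Of 15 genes of iron regulation, 12 were testable, 10 rose and 1 fell, with a median log2 fold change of 4.39. The filter for testable genes used the mean over all 6 libraries. Genes close to silent outside importin123, such as BHLH38 and BHLH100, passed it through their level in importin123, so the filter set their direction. The count of 10 and the median are therefore no result about such genes, and the values of each gene are given instead. BHLH38 had 56.9 and 56.9 CPM in importin123, against 0.949 and 0.561 CPM in Col-0 (log2 fold change 6.25 ± 0.27, adjusted p = 3.1e-05). BHLH39 had 55.1 and 47.7 CPM in importin123, against 1.47 and 0.645 CPM in Col-0 (log2 fold change 5.62 ± 0.35, adjusted p = 0.00011). In Col-0 both neighbours were close to silent, and the 2 importin123 libraries lay close together. BHLH100 had 65.3 and 73.0 CPM in importin123, against 0.255 and 0.442 CPM in Col-0 (log2 fold change 7.60 ± 0.69, adjusted p = 0.00093). BHLH101 had 38.7 and 38.4 CPM in importin123, against 4.09 and 1.68 CPM in Col-0 (log2 fold change 3.75 ± 0.42, adjusted p = 0.0012). Both importin123 libraries lay above both Col-0 libraries in all 4, and Col-0 2 was below Col-0 1 in all but BHLH100. Above them in the cascade, BTS had 392.2 and 406 CPM in importin123, against 112 and 98.4 CPM in Col-0 (log2 fold change 1.93 ± 0.12, adjusted p = 8.9e-05). PYE, a bHLH repressor that acts in iron-starved roots, had 33.0 and 31.2 CPM in importin123, against 10.3 and 12.8 CPM in Col-0 (log2 fold change 1.47 ± 0.14, adjusted p = 0.00031). AT1G74770, annotated as a zinc ion binding protein, had 24.9 and 24.9 CPM in importin123, against 9.90 and 7.25 CPM in Col-0 (log2 fold change 1.54 ± 0.27, adjusted p = 0.0046). Short loci annotated only as uncharacterized proteins were among the largest rises. AT1G47395 had 83.6 and 68.4 CPM in importin123, against 1.47 and 0.633 CPM in Col-0 (log2 fold change 6.20 ± 0.43, adjusted p = 0.00027), its neighbour AT1G47400 had 73.3 and 66.9 CPM in importin123, against 1.98 and 0.334 CPM in Col-0 (log2 fold change 5.96 ± 1.099, adjusted p = 0.01). AT2G30766 had 120.0 and 120.0 CPM in importin123, against 4.93 and 2.51 CPM in Col-0 (log2 fold change 5.02 ± 0.39, adjusted p = 0.00044). The call of AT1G47400 was lost without Col-0 1, without Col-0 2 or without importin123 1, at log2 fold changes of 7.69, 5.13 and 5.88. The calls of the other 9 genes that rose held with any 1 library left out.

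FRU went the other way. It had 2.102 and 2.64 CPM in importin123, against 5.06 and 3.94 CPM in Col-0 (log2 fold change -0.92 ± 0.26, adjusted p = 0.024), a fall that lost its call without Col-0 1 or either importin123 library (log2 fold changes of -0.75, -0.77 and -1.096). The genes FRU acts on in the root epidermis varied as much between the Col-0 libraries as between genotypes. IRT1, the main iron importer, had 8.10 and 19.0 CPM in importin123, against 8.58 and 0.167 CPM in Col-0 (log2 fold change 1.65 ± 1.79, adjusted p = 0.51). FRO2, the ferric reductase beside it, had 5.29 and 10.8 CPM in importin123, against 7.28 and 1.13 CPM in Col-0 (log2 fold change 0.95 ± 1.18, adjusted p = 0.56). Root markers were low in the same library: the summed CPM of 7 root markers was 316 and 283 in importin123, against 205 and 129.9 in Col-0. The part of root share in these values was not tested.

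Among 20 genes of iron transport and storage, 19 were testable, 4 rose and 7 fell, and each of these calls held with any 1 library left out. FRO3, a ferric reductase of mitochondria, had 133 and 137 CPM in importin123, against 24.0 and 14.6 CPM in Col-0 (log2 fold change 2.81 ± 0.22, adjusted p = 0.00021). OPT3, a phloem transporter that carries the shoot's iron signal, had 347 and 338 CPM in importin123, against 107 and 84.7 CPM in Col-0 (log2 fold change 1.83 ± 0.24, adjusted p = 0.0015). The genotypes did not overlap at either gene. NAS4, a nicotianamine synthase, had 51.9 and 43.0 CPM in importin123, against 15.2 and 10.8 CPM in Col-0 (log2 fold change 1.87 ± 0.22, adjusted p = 0.00098). FER2, the ferritin known from seeds, had 11.3 and 9.42 CPM in importin123, against 5.10 and 4.52 CPM in Col-0 (log2 fold change 1.11 ± 0.22, adjusted p = 0.0056). Among the falls, FER1, the main leaf ferritin, had 104 and 101 CPM in importin123, against 397 and 547 CPM in Col-0 (log2 fold change -2.201 ± 0.27, adjusted p = 0.0011). FER4 had 9.55 and 10.7 CPM in importin123, against 58.8 and 74.6 CPM in Col-0 (log2 fold change -2.72 ± 0.19, adjusted p = 0.0001). FER3 fell by 0.82 ± 0.11. The 3 leaf ferritins did not overlap between genotypes. YSL1, which carries iron bound to nicotianamine, had 3.90 and 4.88 CPM in importin123, against 41.8 and 46.1 CPM in Col-0 (log2 fold change -3.32 ± 0.16, adjusted p = 3.5e-05). NAS3, another nicotianamine synthase, fell by 3.16 ± 0.37. VTL5, a vacuolar iron transporter-like protein, had 6.35 and 6.84 CPM in importin123, against 47.4 and 42.5 CPM in Col-0 (log2 fold change -2.77 ± 0.12, adjusted p = 2.6e-05), and the related VTL2 also fell (-1.39 ± 0.20). NRAMP4, which returns iron from the vacuole, had 92.8 and 89.6 CPM in importin123, against 48.6 and 47.5 CPM in Col-0 (log2 fold change 0.92 ± 0.09, adjusted p = 0.00035) but was not called on deposited counts (0.20). Outside the list, NEET, an iron-sulfur cluster protein of chloroplasts and mitochondria, was among the largest falls of all genes, with 3.35 and 3.13 CPM in importin123, against 83.3 and 95.6 CPM in Col-0 (log2 fold change -4.79 ± 0.12, adjusted p = 4.1e-06).

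**Figure D2:**
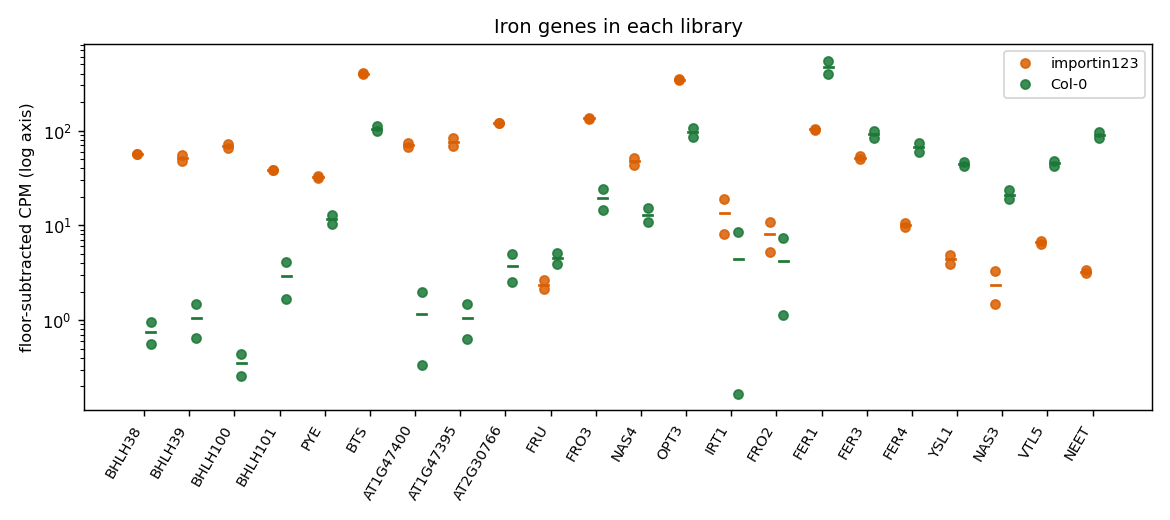
Floor-subtracted CPM of iron genes in each library on a log axis, with importin123 (orange, left) and Col-0 (green, right) for each gene and a bar at the mean of 2 libraries. BHLH38 to AT2G30766 lie above Col-0 in importin123, FER1 to NEET lie below it, and the IRT1 and FRO2 points overlap between genotypes.

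The same iron genes were read against lhp1-3, a contrast that shares the importin123 libraries with the one above. In importin123 minus lhp1-3, 8.74% of all tested genes were higher and 13.6% lower. Of the 12 iron regulators 9 were higher and 1 was lower. BHLH38 stood at 0.815 and 1.24 CPM in lhp1-3 and BHLH100 at 0 and 0.481 CPM, both near the floor there. Both genes passed the filter through their level in importin123, so the count of 9 is no result about such genes. BTS stood at 105 and 121 CPM in lhp1-3 (importin123 minus lhp1-3 log2 difference 1.82 ± 0.12, adjusted p = 0.00017). FRO3 stood at 23.8 and 24.3 CPM (importin123 minus lhp1-3 log2 difference 2.49 ± 0.22, adjusted p = 0.0006). FER1 stood at 363 and 217 CPM in lhp1-3 (importin123 minus lhp1-3 log2 difference -1.499 ± 0.26, adjusted p = 0.0082). YSL1 stood at 57.4 and 47.8 CPM (importin123 minus lhp1-3 log2 difference -3.58 ± 0.16, adjusted p = 2.9e-05).

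Copper proteins that detoxify superoxide fell. Plants save copper by shedding the copper/zinc superoxide dismutases CSD1 and CSD2 and their chaperone CCS when copper is short, and the plastid iron dismutase FSD1 is then used in their place. Of 13 testable genes of this group 6 fell and none rose. CSD2 had 23.5 and 19.2 CPM in importin123, against 149 and 124 CPM in Col-0 (log2 fold change -2.68 ± 0.14, adjusted p = 5.4e-05). CCS had 13.8 and 11.5 CPM in importin123, against 44.9 and 36.8 CPM in Col-0 (log2 fold change -1.69 ± 0.14, adjusted p = 0.00017). The copper transporter COPT1 had 36.9 and 35.8 CPM in importin123, against 65.2 and 73.4 CPM in Col-0 (log2 fold change -0.93 ± 0.10, adjusted p = 0.00059). ZIP2, a metal transporter of the ZIP family, fell by 0.72 ± 0.11 on the log2 scale. FSD1 had 376 and 361 CPM in importin123, against 533 and 731 CPM in Col-0 (log2 fold change -0.78 ± 0.17, adjusted p = 0.0092). CSD1 had 60.4 and 42.3 CPM in importin123, against 128 and 77.9 CPM in Col-0 (log2 fold change -1.01 ± 0.28, adjusted p = 0.03). Without Col-0 2 FSD1 lost its call at -0.54, and CSD1 lost it without Col-0 1 or either importin123 library, at -0.62, -1.28 and -0.77. The copper sensor SPL7 did not pass the test (log2 fold change 0.16 ± 0.10, adjusted p = 0.23).

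Genes of abscisic acid, cold and drought rose. Abscisic acid accumulates in drying plants and induces protective proteins, and the CBF factors induce many of the same genes in the cold through the core CCGAC. Windows of COR15A and RD29A are shown because both rose by over 3 on the log2 scale and are textbook targets of CBF factors, and CCGAC on either strand is in capitals.
COR15A, chr2:17712331-17712580, minus strand: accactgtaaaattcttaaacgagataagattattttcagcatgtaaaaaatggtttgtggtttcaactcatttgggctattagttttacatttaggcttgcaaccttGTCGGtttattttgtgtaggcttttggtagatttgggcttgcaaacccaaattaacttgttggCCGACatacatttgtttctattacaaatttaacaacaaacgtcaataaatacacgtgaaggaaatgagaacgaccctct
RD29A, chr5:21240467-21240716, plus strand: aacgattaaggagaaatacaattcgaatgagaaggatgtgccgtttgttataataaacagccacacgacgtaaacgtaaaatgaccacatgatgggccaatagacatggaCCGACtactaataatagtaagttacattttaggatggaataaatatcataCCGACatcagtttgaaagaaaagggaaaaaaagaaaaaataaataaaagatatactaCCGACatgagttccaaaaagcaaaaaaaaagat
The COR15A window held 2 matches and the RD29A window 3. CCGAC was in 13.1% of windows of tested genes, 14.5% of those that rose and 11.6% of those that fell. ACGTGNC, the core of the abscisic acid response element, which can overlap CACGTG and does so in the BHLH38 and BHLH100 windows, was in 9.34%, 12.6% and 9.41% of the same windows, and neither the COR15A nor the RD29A window held it. The COR15A window also held 1 CACGTG, left in lower case, at -28.

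Of 25 testable genes 15 rose and 2 fell, with a median of 1.53. COR15A, which protects chloroplast membranes from freezing, had 292 and 625 CPM in importin123, against 3.85 and 4.24 CPM in Col-0 (log2 fold change 6.82 ± 0.43, adjusted p = 0.00018). KIN1 had 129 and 224 CPM in importin123, against 16.0 and 11.4 CPM in Col-0 (log2 fold change 3.69 ± 0.31, adjusted p = 0.00045). Its relative KIN2 rose by 2.73 ± 0.15. RAB18, a dehydrin, had 557 and 976 CPM in importin123, against 90.2 and 92.3 CPM in Col-0 (log2 fold change 3.07 ± 0.27, adjusted p = 0.0003). HAI2, a phosphatase that damps the hormone's signal, had 20.2 and 28.1 CPM in importin123, against 2.29 and 2.14 CPM in Col-0 (log2 fold change 3.45 ± 0.20, adjusted p = 6.6e-05). ABI2, another, rose by 1.34 ± 0.14. P5CS1, which makes proline, had 375 and 575 CPM in importin123, against 122 and 157 CPM in Col-0 (log2 fold change 1.77 ± 0.22, adjusted p = 0.0011). In COR15A, KIN1, RAB18 and P5CS1 importin123 2 stood above importin123 1, and both stood above both Col-0 libraries. RD29A had 108 and 280.1 CPM in importin123, against 14.0 and 11.1 CPM in Col-0 (log2 fold change 3.95 ± 0.48, adjusted p = 0.0023), with the same order, but its call was lost without Col-0 1, Col-0 2 or lhp1-3 1, at 4.11, 3.78 and 3.95. NCED3, the enzyme that limits the hormone's synthesis, had 21.6 and 31.1 CPM in importin123, against 10.9 and 13.6 CPM in Col-0 (log2 fold change 1.101 ± 0.19, adjusted p = 0.0036), and without importin123 2 it was no longer called (0.81). The cold and drought transcription factors CBF1, CBF2, CBF3 and DREB2A did not rise, while ABI5 and HSFA6A, factors tied to abscisic acid and given below, did. CBF1 fell, with 6.33 and 5.48 CPM in importin123, against 13.1 and 19.4 CPM in Col-0 (log2 fold change -1.46 ± 0.21, adjusted p = 0.0017). DREB2A fell, with 19.9 and 23.8 CPM in importin123, against 46.9 and 53.0 CPM in Col-0 (log2 fold change -1.19 ± 0.15, adjusted p = 0.0011). CBF2 and CBF3 did not pass the test (-0.94 ± 0.34 and 0.69 ± 0.29). Calls of 11 of the 15 rises and of both falls held with any 1 library left out. In importin123 minus lhp1-3, 18 of the 25 were higher and 1 was lower.

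Late steps of anthocyanin synthesis rose, and the early steps of the flavonoid pathway did not pass the test. Of 19 testable genes 7 rose and none fell, and each rise held with any 1 library left out. DFR, the first enzyme of the anthocyanin branch, had 137 and 109 CPM in importin123, against 14.8 and 12.8 CPM in Col-0 (log2 fold change 3.15 ± 0.14, adjusted p = 3.1e-05). LDOX, the next, had 98.7 and 77.4 CPM in importin123, against 13.51 and 10.7 CPM in Col-0 (log2 fold change 2.86 ± 0.20, adjusted p = 0.00012). UF3GT and AT5MAT, which decorate the pigment, rose by 2.96 ± 0.20 and 2.86 ± 0.29, the glucosyltransferase gene AT4G14090 by 2.195 ± 0.14, and TT19, which helps carry the pigment to the vacuole, by 2.75 ± 0.20. PAP1, the MYB factor that turns on these genes, had 7.63 and 7.02 CPM in importin123, against 1.73 and 1.79 CPM in Col-0 (log2 fold change 2.06 ± 0.23, adjusted p = 0.00054). Its partner TT8 was too close to the floor to be tested after subtraction and was higher on deposited counts (2.64). CHS, the entry enzyme of the whole pathway, had 1124 and 856 CPM in importin123, against 1391 and 883 CPM in Col-0 (log2 fold change -0.20 ± 0.23, adjusted p = 0.52), and the genotypes overlapped. CHI and F3H, the steps after it, were at -0.36 ± 0.21 and 0.30 ± 0.21. FLS1, of the flavonol branch, had 171 and 145 CPM in importin123, against 258 and 151 CPM in Col-0 (log2 fold change -0.37 ± 0.23, adjusted p = 0.24). PAP2 had 6.98 and 5.79 CPM in importin123, against 5.66 and 6.52 CPM in Col-0 (log2 fold change 0.07 ± 0.18, adjusted p = 0.79).

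Glucosinolate genes fell at several steps. These sulfur compounds defend the Brassicaceae, and the aliphatic ones are built from methionine by chain elongation, core formation and side-chain changes. Of 22 testable genes 14 fell and none rose, 13 of them with any 1 library left out, with a median of -0.78. BCAT4, which starts the elongation, had 38.7 and 46.5 CPM in importin123, against 160.3 and 213 CPM in Col-0 (log2 fold change -2.13 ± 0.18, adjusted p = 0.00019). MAM1, which carries it on, had 24.9 and 46.8 CPM in importin123, against 307 and 324 CPM in Col-0 (log2 fold change -3.14 ± 0.28, adjusted p = 0.00042). The lowest library at both was importin123 1. CYP79F1, of the core pathway, had 9.76 and 23.8 CPM in importin123, against 175 and 197 CPM in Col-0 (log2 fold change -3.47 ± 0.41, adjusted p = 0.002). CYP83A1 had 60.7 and 78.3 CPM in importin123, against 249 and 252 CPM in Col-0 (log2 fold change -1.85 ± 0.14, adjusted p = 0.00011). Falls in the steps shared with indole glucosinolates were smaller, at -0.78 ± 0.10 for SUR1 and -0.79 ± 0.09 for UGT74B1, and at -0.80 ± 0.16 and -0.59 ± 0.10 for the indole enzymes CYP79B2 and CYP79B3. MYB29, a regulator of the aliphatic branch, had 1.59 and 3.19 CPM in importin123, against 11.7 and 11.1 CPM in Col-0 (log2 fold change -2.25 ± 0.33, adjusted p = 0.0023). Its relative MYB28 had 45.2 and 51.7 CPM in importin123, against 51.6 and 52.6 CPM in Col-0 (log2 fold change -0.11 ± 0.10, adjusted p = 0.42), and the indole regulators MYB34 and MYB51 were at -0.04 ± 0.09 and -0.02 ± 0.16. CYP79F2, the paralog of CYP79F1, had 30.9 and 24.1 CPM in importin123, against 29.2 and 30.8 CPM in Col-0 (log2 fold change -0.13 ± 0.14, adjusted p = 0.49), and reads of such close copies can be misplaced. MAM3 stood higher after subtraction (0.95 ± 0.24) but was not called on deposited counts. Against lhp1-3, 15 of the 22 were lower in importin123 and 1 was higher.

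**Figure D3:**
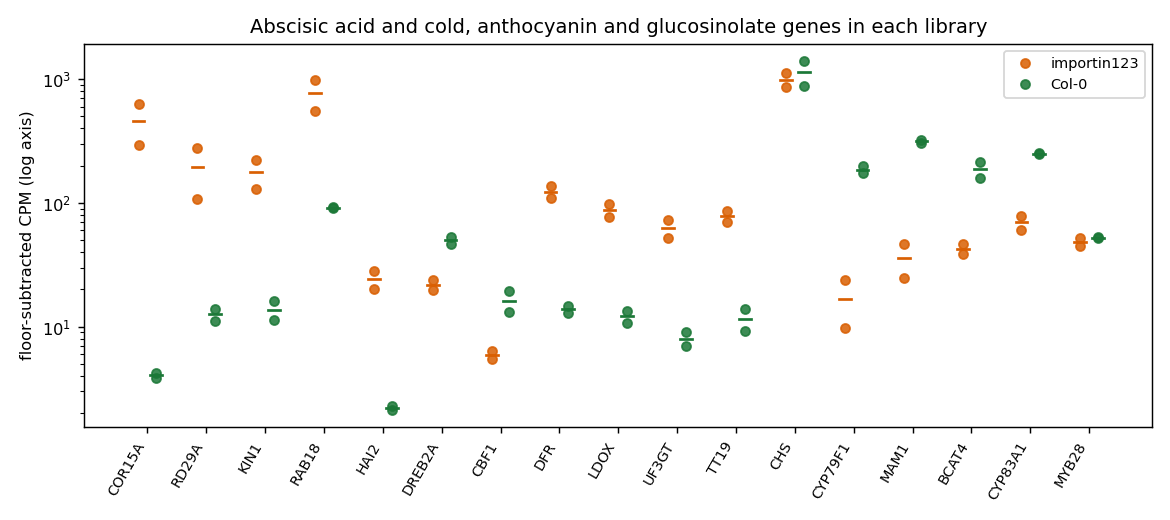
Floor-subtracted CPM in each library on a log axis, importin123 (orange, left) and Col-0 (green, right), with a bar at the mean of 2 libraries. COR15A to HAI2 and DFR to TT19 lie above Col-0 in importin123, DREB2A, CBF1 and CYP79F1 to CYP83A1 lie below it, and CHS overlaps between genotypes.

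Genes that mark sulfur shortage and the recycling of glucosinolates were mixed. ATSDI1, induced when sulfur is short, had 74.9 and 74.8 CPM in importin123, against 14.7 and 13.9 CPM in Col-0 (log2 fold change 2.39 ± 0.10, adjusted p = 2.6e-05). LSU1, induced alike, had 53.3 and 55.3 CPM in importin123, against 21.1 and 21.4 CPM in Col-0 (log2 fold change 1.35 ± 0.09, adjusted p = 9.9e-05). APR2, a sulfate-reducing enzyme, had 138 and 141 CPM in importin123, against 233 and 237 CPM in Col-0 (log2 fold change -0.75 ± 0.10, adjusted p = 0.0014). Over the list 4 rose and 2 fell of 12.

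Nitrate and phosphate genes fell. Of 21 testable genes 13 fell and none rose, with a median of -0.88, and 10 of the falls held with any 1 library left out. NIA2, the main nitrate reductase, had 936 and 1001 CPM in importin123, against 2037 and 2073 CPM in Col-0 (log2 fold change -1.09 ± 0.13, adjusted p = 0.00073). NIR1, which reduces nitrite, had 272 and 259.5 CPM in importin123, against 642 and 583 CPM in Col-0 (log2 fold change -1.205 ± 0.12, adjusted p = 0.00041). The libraries of each genotype lay close together at both. Of the phosphate genes, PHT1;1, an uptake transporter, had 55.5 and 54.0 CPM in importin123, against 111 and 114 CPM in Col-0 (log2 fold change -1.04 ± 0.14, adjusted p = 0.0014). SPX1, a phosphate sensor, had 54.8 and 65.5 CPM in importin123, against 129 and 132 CPM in Col-0 (log2 fold change -1.11 ± 0.15, adjusted p = 0.0014). SQD2 and MGD2, which swap phospholipids for other lipids when phosphate is short, fell by 1.07 ± 0.11 and 1.47 ± 0.14 on the log2 scale.

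Genes induced by darkness and sugar starvation fell as well, 10 of 18 testable genes of that list, with 3 rising. SEN1 had 4.35 and 5.40 CPM in importin123, against 79.9 and 99.0 CPM in Col-0 (log2 fold change -4.20 ± 0.19, adjusted p = 3.3e-05). DIN10 had 106 and 128 CPM in importin123, against 719 and 608 CPM in Col-0 (log2 fold change -2.50 ± 0.15, adjusted p = 7.8e-05), and TPS9 and DIN4 fell by 1.09 ± 0.10 and 1.29 ± 0.13. SWEET15, a sugar exporter that is also induced by abscisic acid, had 24.0 and 55.2 CPM in importin123, against 3.03 and 3.596 CPM in Col-0 (log2 fold change 3.58 ± 0.41, adjusted p = 0.0013), with importin123 2 above importin123 1. None of the 3 rises in this list held with any 1 library left out: SWEET15 was not called without either Col-0 library or without lhp1-3 1 (3.44, 3.69 and 3.58). GPT2, a sugar phosphate transporter, had 9.96 and 5.86 CPM in importin123, against 2.096 and 3.45 CPM in Col-0 and lost its call without importin123 1 (1.07). BGLU30 had 9.70 and 18.8 CPM in importin123, against 4.999 and 2.58 CPM in Col-0 and lost it without Col-0 2 or either importin123 library (1.499, 2.31 and 1.36).

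Clock genes moved in both directions. The clock runs through morning repressors, day-phased pseudo-response regulators and evening genes, and 1 harvest hour cannot tell a change of level from a change of timing. Of 18 testable genes 5 rose and 5 fell, and each of these calls held with any 1 library left out. PRR7, a day-phased repressor, had 30.3 and 34.5 CPM in importin123, against 3.71 and 4.15 CPM in Col-0 (log2 fold change 3.04 ± 0.33, adjusted p = 0.00088). LNK1, a coactivator, had 24.0 and 27.2 CPM in importin123, against 3.38 and 3.14 CPM in Col-0 (log2 fold change 2.97 ± 0.16, adjusted p = 6.3e-05). GI, an evening gene that links the clock to flowering, had 95.6 and 102 CPM in importin123, against 33.7 and 28.9 CPM in Col-0 (log2 fold change 1.66 ± 0.12, adjusted p = 0.00011), and PRR3 and LNK2 rose by 1.77 ± 0.31 and 1.13 ± 0.23. The activators RVE8, RVE4 and RVE1 fell by 0.99 ± 0.17, 0.86 ± 0.11 and 0.83 ± 0.14, and the photoreceptor ligases ZTL and LKP2 by 0.68 ± 0.09 and 0.70 ± 0.11. TOC1, the central evening gene, had 147 and 173 CPM in importin123, against 174 and 179 CPM in Col-0 (log2 fold change -0.14 ± 0.11, adjusted p = 0.36). LUX had 72.5 and 74.5 CPM in importin123, against 66.3 and 62.4 CPM in Col-0 (log2 fold change 0.19 ± 0.09, adjusted p = 0.11). ELF3 and ELF4 were at 0.08 ± 0.13 and 0.30 ± 0.11. CCA1 and LHY were too low at this hour to be tested after subtraction. In importin123 minus lhp1-3 the log2 difference was 2.41 ± 0.16 for LNK1 and 1.90 ± 0.12 for GI. AAAATATCT, the evening element bound by the morning factors, was in 2.42% of windows of tested genes, 2.76% of those that rose and 2.2% of those that fell.

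Of 20 light-signal genes 2 rose and 4 fell. The risen pair were PIF4 and PIF5, growth-promoting factors that phytochrome destroys in light. PIF4 had 20.2 and 25.2 CPM in importin123, against 3.09 and 2.77 CPM in Col-0 (log2 fold change 2.96 ± 0.35, adjusted p = 0.00094). PIF5 had 25.3 and 27.5 CPM in importin123, against 7.22 and 8.52 CPM in Col-0 (log2 fold change 1.74 ± 0.14, adjusted p = 0.00014). PIF4 stood at 0.861 and 0.292 CPM in lhp1-3. PIF4 was thus above Col-0 in importin123 and below it in lhp1-3. HY5, which acts against the PIF factors in light, had 24.8 and 24.3 CPM in importin123, against 38.5 and 33.2 CPM in Col-0 (log2 fold change -0.55 ± 0.11, adjusted p = 0.0059), and its homolog HYH fell by 0.83 ± 0.14. CRY1, a blue-light receptor, had 95.8 and 113 CPM in importin123, against 180.0 and 171 CPM in Col-0 (log2 fold change -0.75 ± 0.11, adjusted p = 0.0019). CRY2 fell by 0.36 ± 0.11 and was not called without either Col-0 library, importin123 1 or lhp1-3 1 (-0.37, -0.39, -0.25 and -0.36). PHYA and PHYB did not pass the test after subtraction (0.16 ± 0.10 and -0.12 ± 0.09). YUC8, an auxin-synthesis gene that PIF4 binds, had 10.7 and 9.03 CPM in importin123, against 3.72 and 2.78 CPM in Col-0 (log2 fold change 1.60 ± 0.21, adjusted p = 0.0011).

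Photosynthesis genes went in both directions. Of 25 genes 6 rose and 11 fell. The rises were in light-harvesting proteins. LHCB1.1 had 596 and 723 CPM in importin123, against 58.9 and 81.5 CPM in Col-0 (log2 fold change 3.23 ± 0.24, adjusted p = 0.00016). LHCB1.2 had 833 and 926 CPM in importin123, against 98.3 and 115 CPM in Col-0 (log2 fold change 3.05 ± 0.20, adjusted p = 9.2e-05). The genotypes did not overlap at either copy. LHCB2.2 had 102 and 127 CPM in importin123, against 22.2 and 31.8 CPM in Col-0 (log2 fold change 2.08 ± 0.20, adjusted p = 0.0004). LHCB1.3, the member of the same trio with the most reads, had 3070.3 and 3722 CPM in importin123, against 1840.3 and 2369 CPM in Col-0 (log2 fold change 0.69 ± 0.22, adjusted p = 0.037) and was not called on deposited counts, and reads of these near-identical copies can be misplaced. LHCA4, LHCB2.1 and LHCB3 also rose (1.297 ± 0.17, 1.63 ± 0.21 and 1.21 ± 0.16). Without importin123 2 they stood at 1.09, 1.38 and 1.13 and were not called, with the call lost on deposited counts only. LHCA4 and LHCB3 were also not called without Col-0 1 (1.15 and 1.03) or lhp1-3 2 (1.28 and 1.19), again on deposited counts only. The falls were led by carbon fixation: RBCS3B, a small subunit of Rubisco, had 6483 and 6774 CPM in importin123, against 14270.3 and 14161 CPM in Col-0 (log2 fold change -1.101 ± 0.16, adjusted p = 0.0016). RCA, its activase, had 4237 and 4805 CPM in importin123, against 9405 and 9102 CPM in Col-0 (log2 fold change -1.03 ± 0.16, adjusted p = 0.0023). Both encode abundant proteins of the chloroplast stroma. GAPA had 1494 and 1759 CPM in importin123, against 3163 and 3266 CPM in Col-0 (log2 fold change -0.98 ± 0.16, adjusted p = 0.0028). LHCB4.1, a minor antenna protein, had 979.6 and 1166 CPM in importin123, against 1727 and 1862 CPM in Col-0 (log2 fold change -0.74 ± 0.16, adjusted p = 0.0084). Of the 11 falls, 4 held with any 1 library left out. These calls stand beside the median of -0.25 for the 10% of genes with the highest RPKM. Of that 10%, 43.4% fell and 4.59% rose, so 11 falls of 25 are near the share at that level.

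**Figure D4:**
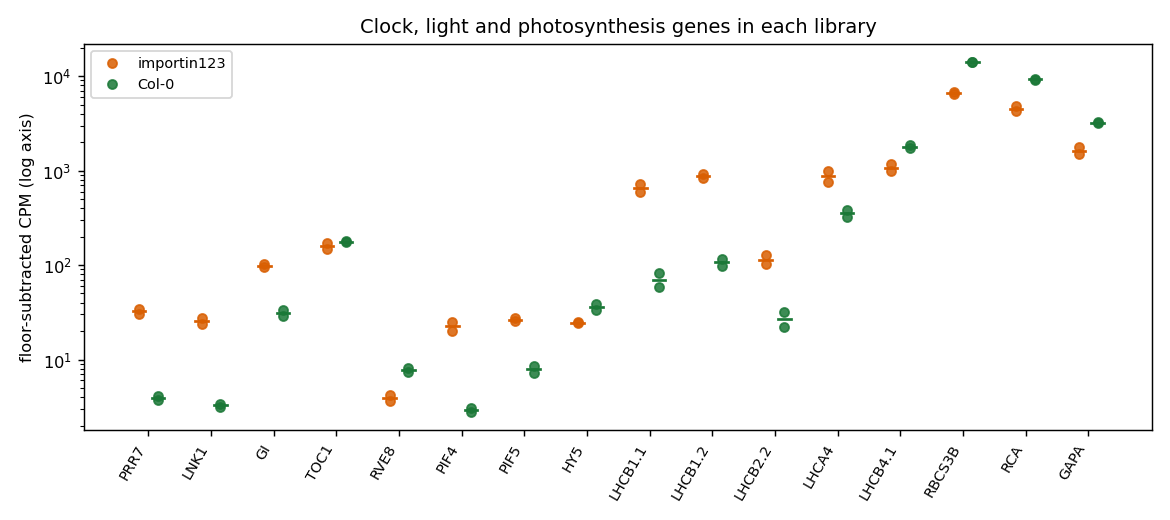
Floor-subtracted CPM in each library on a log axis for clock, light and photosynthesis genes, importin123 (orange, left) and Col-0 (green, right), with a bar at the mean of 2 libraries. PRR7, LNK1, GI, PIF4, PIF5, LHCB1.1, LHCB1.2, LHCB2.2 and LHCA4 lie above Col-0 in importin123, while RVE8, HY5, LHCB4.1, RBCS3B, RCA and GAPA lie below it.

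Touch and wound genes fell in 9 of 13 cases, with none rising and a median of -0.95. CML38, a calmodulin-like protein, had 10.104 and 9.28 CPM in importin123, against 39.4 and 61.5 CPM in Col-0 (log2 fold change -2.38 ± 0.21, adjusted p = 0.00027). ZAT12, a zinc-finger factor of many stresses, had 71.3 and 65.3 CPM in importin123, against 161 and 224 CPM in Col-0 (log2 fold change -1.49 ± 0.16, adjusted p = 0.00047). TCH3 and ERF104 fell by 1.14 ± 0.19 and 1.06 ± 0.13. Col-0 2 stood above Col-0 1 in all 4, and both importin123 libraries were below both. TCH4, a wall enzyme, stood at -1.29 ± 0.31 and at -0.69 without Col-0 2, where it was still called. It was not called without importin123 1 (-1.204) or without importin123 2 (-1.38).

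Jasmonate genes gave no common direction, with 2 risen and 4 fallen of 27. The 2 rises were early enzymes of the hormone's synthesis in plastids. LOX2 had 872 and 1095 CPM in importin123, against 224 and 334 CPM in Col-0 (log2 fold change 1.82 ± 0.22, adjusted p = 0.00086). AOC2 had 475 and 616 CPM in importin123, against 118 and 119 CPM in Col-0 (log2 fold change 2.205 ± 0.17, adjusted p = 0.00013). Both are known to be induced by wounding and by jasmonate itself. JAZ9, a repressor of the response, had 30.0 and 46.0 CPM in importin123, against 95.9 and 109.5 CPM in Col-0 (log2 fold change -1.43 ± 0.20, adjusted p = 0.0016). MYC2, its main factor, had 321 and 315 CPM in importin123, against 227 and 372 CPM in Col-0 (log2 fold change 0.09 ± 0.21, adjusted p = 0.77). At MYC2 the Col-0 libraries lay on either side of both importin123 libraries. Salicylic acid and immunity genes were mostly not called: of 16, CBP60G alone fell, with 28.3 and 32.5 CPM in importin123, against 65.7 and 104 CPM in Col-0 (log2 fold change -1.48 ± 0.21, adjusted p = 0.0019), and NPR1 and EDS1 were at -0.21 ± 0.10 and 0.30 ± 0.14. SNC1, an immune receptor whose output needs MOS6 in a gain-of-function mutant, had 214 and 274 CPM in importin123, against 207 and 209 CPM in Col-0 (log2 fold change 0.23 ± 0.14, adjusted p = 0.23).

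In the heat list 1 gene rose and 6 fell of 16. HSP90.1 had 18.3 and 19.2 CPM in importin123, against 34.9 and 29.7 CPM in Col-0 (log2 fold change -0.78 ± 0.14, adjusted p = 0.0041). HSP101 had 10.98 and 11.04 CPM in importin123, against 18.9 and 16.4 CPM in Col-0 (log2 fold change -0.68 ± 0.13, adjusted p = 0.0062). The rise was HSP18.2, at 3.16 and 2.39 CPM in importin123, against 1.303 and 0.980 CPM in Col-0, and it was not called without Col-0 2 or importin123 1 (1.08 and 1.07). Detoxification and mitochondrial stress genes fell in 7 of 14, with none rising. UGT74E2, which conjugates the auxin indole-3-butyric acid, had 7.06 and 5.11 CPM in importin123, against 66.8 and 62.0 CPM in Col-0 (log2 fold change -3.41 ± 0.16, adjusted p = 3.5e-05). AOX1A, the alternative oxidase, had 67.9 and 66.8 CPM in importin123, against 176 and 147 CPM in Col-0 (log2 fold change -1.26 ± 0.11, adjusted p = 0.00024). GSTU19, a glutathione transferase, had 457 and 407 CPM in importin123, against 854 and 811 CPM in Col-0 (log2 fold change -0.95 ± 0.12, adjusted p = 0.0011).

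Growth hormone and cell-cycle genes were called on both counts in shares near the background of 30.5%. In the auxin list 2 rose and 3 fell of 21, and GH3.6 and GH3.5, which conjugate auxin, fell by 0.86 ± 0.10 and 0.85 ± 0.16. In the gibberellin and cytokinin list 2 rose and 1 fell of 11. GA20OX2, a gibberellin-synthesis enzyme, had 4.86 and 2.94 CPM in importin123, against 1.29 and 1.11 CPM in Col-0 (log2 fold change 1.70 ± 0.32, adjusted p = 0.005). Of 23 histone and cell-cycle genes 3 rose and 3 fell. The calls that held with any 1 library left out were falls of AT2G30620 and AT1G06760, annotated as winged-helix DNA-binding proteins, by 0.60 ± 0.11 and 0.53 ± 0.11. On floor-subtracted counts alone 10 of the 23 histone and cell-cycle genes were higher and 3 lower, with a list median of 0.29. That stands beside 20.3% higher and 21% lower over all tested genes. On deposited counts alone 3 of the 23 were higher and 13 lower. Of 6 triterpene cluster genes 1 rose, CYP71A16, with 40.4 and 32.1 CPM in importin123, against 18.3 and 13.52 CPM in Col-0, and without Col-0 2 it was not called (0.98).

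Root genes had 2 rises and 2 falls of 13. RHD6, which starts root hairs, had 9.51 and 9.56 CPM in importin123, against 1.81 and 1.05 CPM in Col-0 (log2 fold change 2.74 ± 0.29, adjusted p = 0.00045). GL2, which keeps epidermal cells hairless, had 26.4 and 27.3 CPM in importin123, against 46.3 and 48.8 CPM in Col-0 (log2 fold change -0.83 ± 0.14, adjusted p = 0.0028). Both act in the choice between hair cells and hairless cells. SCR, of the endodermis, had 30.9 and 29.7 CPM in importin123, against 44.4 and 47.2 CPM in Col-0 (log2 fold change -0.60 ± 0.09, adjusted p = 0.0023). PRP3, a wall protein of hair cells, had 149 and 135 CPM in importin123, against 53.1 and 21.4 CPM in Col-0 (log2 fold change 1.93 ± 0.42, adjusted p = 0.017). Col-0 2 was lowest, and PRP3 was not called on deposited counts. LRX1, another, was at 1.98 ± 0.38 and was also not called on deposited counts.

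Polycomb proteins keep flowering and seed genes silent, and LHP1 is a part of that machinery. Of 19 testable Polycomb genes 3 rose and 2 fell. On floor-subtracted counts alone 8 of the 19 were higher and 2 lower, with a list median of 0.35. On deposited counts alone 11 of 26 were higher and 6 lower. CLF, a methyltransferase of the repressive mark, had 22.8 and 21.0 CPM in importin123, against 10.5 and 8.54 CPM in Col-0 (log2 fold change 1.21 ± 0.14, adjusted p = 0.00064). PKL, a chromatin remodeller, had 39.7 and 51.7 CPM in importin123, against 19.4 and 13.8 CPM in Col-0 (log2 fold change 1.47 ± 0.25, adjusted p = 0.0049). EMF1 had 16.4 and 20.3 CPM in importin123, against 10.3 and 8.92 CPM in Col-0, and without importin123 2 it was not called (0.77). In importin123 minus lhp1-3 the difference was 0.43 ± 0.14 for CLF and -0.17 ± 0.25 for PKL, both short of the threshold. Of 15 floral MADS-box genes only 6 were testable. Of these PI and AP3 rose and SEP4 fell, and in 4 of the testable genes importin123 was within 0.5 of a floor. PI, which specifies petals and stamens, had 5.59 and 3.92 CPM in importin123, 13.2 and 12.2 CPM in lhp1-3 and 0.623 and 0.669 CPM in Col-0 (log2 fold change 2.87 ± 0.24, adjusted p = 0.00018). AP3, its partner, had 0.796 and 0.196 CPM in importin123, 11.7 and 9.75 CPM in lhp1-3 and 0.0850 and 0 CPM in Col-0, at the floor in importin123 and Col-0, and its call was lost without Col-0 2, importin123 1 or either lhp1-3 library. SEP4, a co-factor of floral organ genes, had 3.06 and 4.49 CPM in importin123, 19.3 and 18.3 CPM in lhp1-3 and 6.63 and 7.61 CPM in Col-0 (log2 fold change -0.91 ± 0.20, adjusted p = 0.0092), and without importin123 1 it was not called (-0.67). SEP3 had 0.0816 and 0.178 CPM in importin123, 62.0 and 62.5 CPM in lhp1-3 and 0.623 and 1.76 CPM in Col-0. All 4 were highest in lhp1-3. In importin123 minus lhp1-3, 6 of the 6 testable genes were lower and none higher on floor-subtracted counts. The filter for testable genes used the mean over all 6 libraries, lhp1-3 included. Genes such as SEP3 and AP3 passed it through their level in lhp1-3, so their place below lhp1-3 was set by the filter. The count of 6 is therefore no result about them.

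Flowering-time genes had 4 rises and 5 falls of 23. SVP, a repressor of flowering, had 37.3 and 46.9 CPM in importin123, against 78.6 and 84.2 CPM in Col-0 (log2 fold change -0.95 ± 0.12, adjusted p = 0.001). AP2 had 16.8 and 18.3 CPM in importin123, against 29.6 and 28.5 CPM in Col-0 (log2 fold change -0.73 ± 0.10, adjusted p = 0.0015). MFT, a relative of FT known from seed germination, had 21.1 and 16.9 CPM in importin123, against 7.07 and 8.33 CPM in Col-0 (log2 fold change 1.303 ± 0.16, adjusted p = 0.00096). At these 3 genes the genotypes did not overlap. FT, the mobile flowering signal, had 2.78 and 6.27 CPM in importin123, 40.0 and 29.8 CPM in lhp1-3 and 7.65 and 6.53 CPM in Col-0 (log2 fold change -0.64 ± 0.36, adjusted p = 0.2). SOC1 had 10.9 and 29.3 CPM in importin123, against 17.0 and 31.2 CPM in Col-0 (log2 fold change -0.26 ± 0.51, adjusted p = 0.71), with the libraries further apart within each genotype than between genotypes. Meristem and organ genes fell in 7 of 16, 2 of them with any 1 library left out. These were AS1, which shapes the leaf, at -0.53 ± 0.10, and YAB3, at -0.74 ± 0.14.

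Seed genes rose in 6 of 13 testable members of 24, with none falling and a median of 1.44. OLEO1, an oil-body protein, had 71.2 and 67.9 CPM in importin123, against 24.4 and 26.7 CPM in Col-0 (log2 fold change 1.44 ± 0.10, adjusted p = 0.0001). CRA1, a storage globulin, had 584 and 855 CPM in importin123, against 233 and 271 CPM in Col-0 (log2 fold change 1.51 ± 0.19, adjusted p = 0.00093). Without importin123 2 CRA1 was not called (1.21). ABI5, a factor of the hormone response in seeds, had 11.6 and 8.73 CPM in importin123, against 4.18 and 4.24 CPM in Col-0 (log2 fold change 1.27 ± 0.20, adjusted p = 0.0026). OLEO1 and ABI5 did not overlap between genotypes. The sum over 7 seed markers was 1015 and 1493 CPM in importin123, against 419 and 546 CPM in Col-0. In lhp1-3 it was 59.3 and 60.6 CPM. The summed seed-marker RNA was thus highest in importin123 and lowest in lhp1-3. Of the 7 markers 6 were testable, of which 2 rose and none fell. CRA1 alone gave 584 and 855 CPM of the sum in importin123, against 233 and 271 CPM in Col-0. The sum over 7 leaf markers was 16472 and 17516 CPM in importin123, against 26950.3 and 26931 CPM in Col-0, and 2 of them rose and 3 fell. Flower markers summed to 7.33 and 5.004 CPM in importin123, against 2.42 and 2.81 CPM in Col-0, and anther markers to 12.7 and 10.2 CPM, against 6.97 and 7.92 CPM. Only 4 of the 7 flower markers were testable, of which 2 rose, and PI made up most of their sum in importin123. Only 1 of the 7 anther markers was testable, LAP6, with a mean of 7.42 CPM in importin123, against 6.39 CPM in Col-0, and it was not called. Values under 0 were set to 0 in the subtraction, which can leave a positive remainder in sums over genes near the floor. The part of tissue proportions in the other results was not tested.

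Outside the lists the 12 largest rises and the 12 largest falls with a gene symbol named further genes. LTP4, a lipid transfer protein, had 28.9 and 57.3 CPM in importin123, against 0.382 and 0.0717 CPM in Col-0 (log2 fold change 7.62 ± 0.66, adjusted p = 0.00067). HSFA6A, a heat-shock factor known to respond to abscisic acid, had 6.23 and 9.31 CPM in importin123, against 0.227 and 0.131 CPM in Col-0 (log2 fold change 5.44 ± 0.40, adjusted p = 0.00011). Both genes were close to silent in Col-0. LTP3, a close paralog of LTP4 with which it can share reads, had 33.6 and 81.7 CPM in importin123, against 3.19 and 4.92 CPM in Col-0 (3.83 ± 0.52) and was not called without either Col-0 or either lhp1-3 library (3.53 and 4.16 without Col-0 1 and 2, 3.83 and 3.81 without lhp1-3 1 and 2). At LTP3 importin123 2 stood above importin123 1, as at COR15A and RD29A. NUDT24, a nudix hydrolase, had 49.2 and 40.2 CPM in importin123, against 0.0850 and 0.693 CPM in Col-0 (6.78 ± 1.195) and was not called without Col-0 1, Col-0 2 or importin123 1 (5.99, 8.99 and 6.63). ENODL1 had 4.63 and 15.3 CPM in importin123, against 0.510 and 0.812 CPM in Col-0 (3.91 ± 0.78) and lost its call without either Col-0 library (3.598 and 4.27). HSD7, a hydroxysteroid dehydrogenase, had 9.76 and 6.45 CPM in importin123, 6.15 and 7.46 CPM in lhp1-3 and 0.779 and 0.275 CPM in Col-0 (log2 fold change 3.96 ± 0.47, adjusted p = 0.00091), and the locus MIR5642b had 636 and 446 CPM in importin123, 522 and 462 CPM in lhp1-3 and 31.7 and 39.4 CPM in Col-0 (log2 fold change 3.93 ± 0.22, adjusted p = 6.6e-05). Both mutants lay above Col-0 at these loci. MIR5642b lies over 99.2% of its span within AT2G01008, and its reads cannot be told from those of that gene. Across the 6 libraries its CPM had the same order as the floor's share of nuclear counts. That share was 15.2% and 10.5% in importin123, 12.3% and 11.6% in lhp1-3 and 1.44% and 1.74% in Col-0. The part of that background in the rise of MIR5642b was not tested. Among the falls, CYP81D11, a cytochrome P450 of detoxification, had 11.9 and 8.62 CPM in importin123, against 249.6 and 250.4 CPM in Col-0 (log2 fold change -4.61 ± 0.18, adjusted p = 2.0e-05). NIT4, a nitrilase of cyanide detoxification, had 3.57 and 4.40 CPM in importin123, against 62.2 and 66.3 CPM in Col-0 (log2 fold change -4.01 ± 0.13, adjusted p = 1.2e-05). The libraries of Col-0 lay close together at both genes. GRP3S, a glycine-rich protein, had 35.7 and 37.4 CPM in importin123, against 464 and 566 CPM in Col-0 (log2 fold change -3.82 ± 0.15, adjusted p = 2.0e-05). FMO GS-OX1, which oxidizes glucosinolate side chains, had 0.735 and 2.35 CPM in importin123, against 21.5 and 25.8 CPM in Col-0, and on deposited counts its log2 fold change was -2.15. PP2-A5 had 1.02 and 0.321 CPM in importin123, against 6.87 and 8.37 CPM in Col-0, and -1.35 on deposited counts. Both were at the floor in importin123.

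Some of the largest falls were at loci that were low in both mutants. MRD1 had 0.633 and 0.445 CPM in importin123, 0.891 and 0.997 CPM in lhp1-3 and 31.7 and 31.1 CPM in Col-0, and its log2 fold change on deposited counts was -3.78. HEI10, which acts in meiotic crossing over, had 0.959 and 2.30 CPM in importin123, 1.39 and 1.72 CPM in lhp1-3 and 31.1 and 30.9 CPM in Col-0, and -2.56 on deposited counts. The annotated spans overlap over 86.8% of MRD1 and 39.2% of HEI10, so reads of the pair cannot be told apart. RPL12-B, a ribosomal protein gene, had 0.959 and 1.12 CPM in importin123, 0.725 and 0.413 CPM in lhp1-3 and 15.4 and 18.6 CPM in Col-0 (log2 fold change -4.03 ± 0.28, adjusted p = 9.9e-05).

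Among genes called alike on both counts, the median rise was 1.27 and the median fall 0.71 on the log2 scale. At least 2 log2 units were reached by 495 rises and 179 falls. The call on both counts bears on these sizes and numbers, because the deposited log2 fold change of the genes tested had a median of -0.43, so that a rise had to be larger than a fall to pass. Of 107 tested nuclear genes with stretches matching the chloroplast or mitochondrial genome, 104 rose and none fell, beside a chloroplast share of counts of 18.7% and 13.7% in importin123, against 2.95% and 3.27% in Col-0. At these genes reads of nuclear and organelle origin cannot be told apart. They were kept in the sizes and numbers of rises above and in the chromosome shares that follow, which were not computed without them. Risen genes made up 9.46%, 12.99%, 9.55%, 8.25% and 9.65% of tested genes on chromosomes 1, 2, 3, 4 and 5, and fallen genes 19.8% to 21.9%. Some annotated genes overlap, and whether their reads were separated by strand is not stated. Among tested genes 13% shared at least 25% of their span with another gene of the table, as did 8.11% of risen and 16.8% of fallen genes. MYC2, F3H, FER1, APR2, TCH3, LUX, BHLH38 and AT1G06760 are among them, and reads of each and its neighbour cannot be told apart in the shared stretch.

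**Figure D5:**
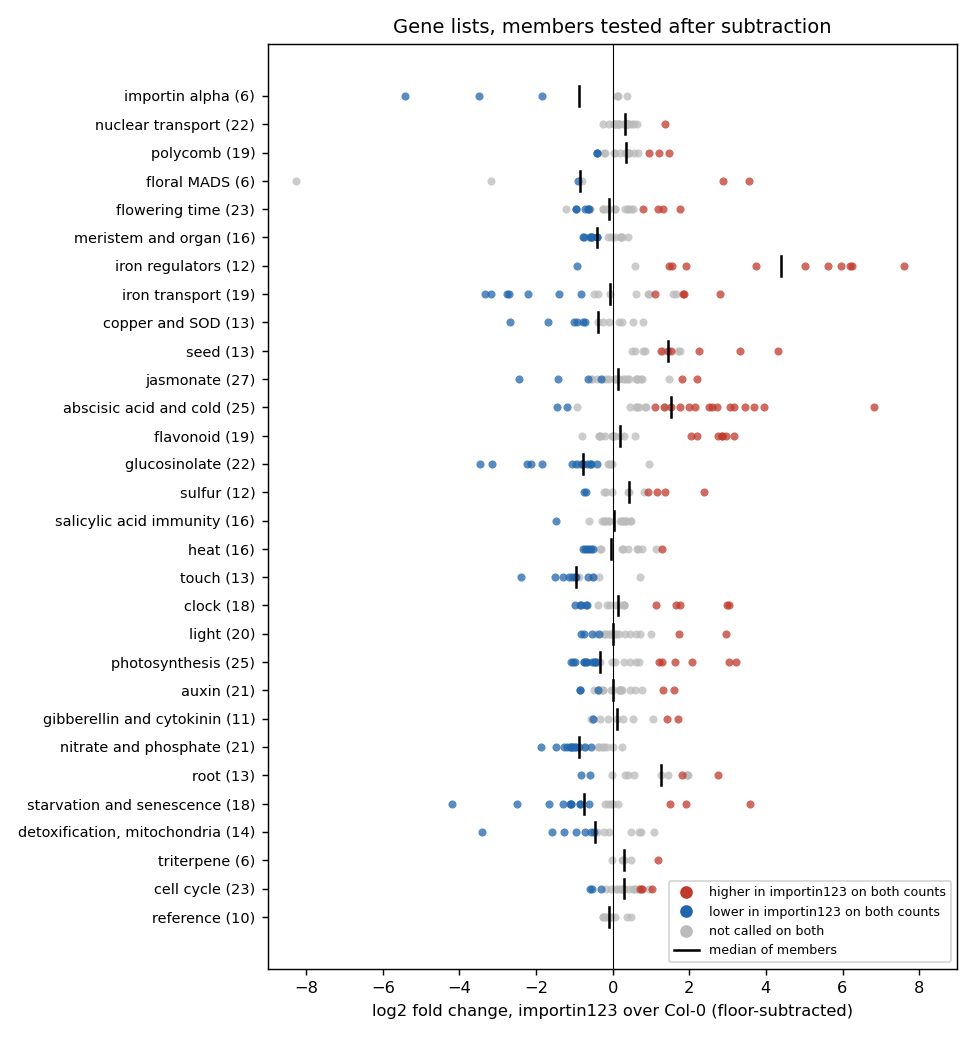
Each row is a gene list with its number of members tested after subtraction, each point is the log2 fold change of 1 member, importin123 over Col-0, and the black bar is the median. Red members rose and blue members fell on both counts, and the highest list medians are 4.39 for iron regulators, 1.53 for abscisic acid and cold genes and 1.44 for seed genes. The point furthest left is SEP1, at 0 CPM in both importin123 libraries.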

How the data were processed

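RNA from whole seedlings of importin123, lhp1-3 and Col-0 (2 libraries each) was sequenced after poly(A) selection, per the labels. The submitters' processing notes name FastQC, HISAT2, SAMtools, bedtools, edgeR and TAIR10, with no versions or settings. No source used here says whether counting was by strand. The authors deposited raw counts per feature and, beside them, RPKM values per gene, whose length is the gene span. All deposited columns were matched to samples by name.

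Everything below was computed from these values. The floor of each library, the median reads per kb of silent genes times gene length in kb, was subtracted from its counts. Genes whose mean was under 1 floor above the floor or under 10 counts were left out. Deposited and floor-subtracted counts were each fitted with edgeR 4.0.16 in R 4.3.3 (TMM scaling, filterByExpr, robust quasi-likelihood test, all 6 libraries, Benjamini-Hochberg adjustment over all genes tested), and calls needed an adjusted p under 0.05 on both in the same direction. Depth per library is given with the results, and n = 2 limits the precision of each standard error. Promoter windows and symbols came from the TAIR10.1 annotation, and copies of organelle DNA were found with BLAST 2.17.0 (matches of 100 bases or more at 95% identity). Named genes were the importin alpha family and LHP1, the 12 largest rises and falls with a symbol and at least 5 CPM in the higher genotype, up to 4 called members per direction of each list, and further list members with their values. The members and the 31 gene lists were chosen with earlier results of these data known. DESeq2 1.42.0, limma 3.58.1 on log2(RPKM + 1) and other settings were tried as alternatives.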

Additional observations from a re-analysis of the deposited data

Results flagged for a closer look

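Chloroplast genes, which are outside the nuclear comparison, held 18.72% and 13.68% of all counts in importin123, against 2.95% and 3.274% in Col-0. Mitochondrial genes held 0.6395% and 0.4573% in importin123, against 0.1275% and 0.1244% in Col-0. Both shares were picked out because they lie above the level in the control libraries, and in lhp1-3 they were 14.93% and 14.54% for chloroplast genes. Silent nuclear genes were raised in the same libraries, and the part of either in the nuclear results was not tested beyond subtracting the floor.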

How the results depend on the processing

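Of 237 genes followed through 19 alternatives, 233 were called and none of these reversed. Some of the 233 lost their call with 1 library left out, and over all called genes a larger share did. The followed genes were chosen with earlier results of these data known, so they do not stand for all called genes. With a minimum of 1.5-fold in the test, 16069 genes were called on deposited counts, 2299 on floor-subtracted counts and 1923 alike on both (808 higher and 1115 lower), fewer by construction. With 1 library left out the counts ran from 20303 to 23699 on deposited counts, from 5140 to 7828 on floor-subtracted counts and from 4356 to 5868 alike on both. The floor-subtracted count fell to 5140 without importin123 1 and to 5407 without Col-0 2, with fewer samples in each fit, and the lone library of a genotype was then assumed to vary like the others. DESeq2 gave 24428, 9010 and 6118 calls and RLE size factors 25296, 8180 and 5744, all within 1.5 times the values reported. On deposited counts the majority turned, with 11714 higher and 12714 lower in DESeq2 and 12403 and 12893 with RLE size factors. Alike on both, DESeq2 gave 1575 higher and 4543 lower and RLE size factors 1544 and 4200. A floor 25% higher gave 4891 genes alike on both and a floor 25% lower 8605. Without organelle copies and noncoding genes 5518 were called alike, 1717 higher and 3801 lower. Replicate numbers did not pair the samples: deviations of same-numbered importin123 and Col-0 libraries correlated at r = 0.0358. The fit with a replicate block gave 24232 calls on deposited counts, 7476 on floor-subtracted counts and 5673 alike on both. Genes within 0.5 of a floor in importin123, among them IMPA-2, have no reliable fold change at this background.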
